A study of Mus musculus with 18 samples.

Results

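Lipid droplet genes were followed in alveolar macrophages, the resident phagocytes of the airspace, from 3 mouse crosses in which Vhl was deleted together with hypoxia-inducible factor genes. The genes were chosen by name and number 9 of the 32789 in the count table: the perilipin coat genes Plin2, Plin3 and Plin4, the adipose triglyceride lipase Pnpla2 with its activator Abhd5 and its inhibitor Hilpda, the hormone-sensitive lipase Lipe, and the triglyceride synthases Dgat1 and Dgat2. All 9 passed the filter on low counts over the 6 groups, but Plin4 had too few counts to be tested in the triple cross alone. The knockouts were Vhl/Hif1a (labelled CD11c-Cre_Vhl-Hif1-KO), Vhl/Hif2a (CD11c-Cre_Vhl-Hif2-KO; Hif2a is the gene Epas1) and a triple knockout of all 3 genes (CD11c-Cre_Vhl-Hif1-Hif2-KO). Their controls were labelled Vhl-Hif1a_flox-flox, Vhl-Hif2a_flox-flox and Vhl-Hif1-Hif2a_flox-flox. Each of the 6 groups had 3 libraries of polyA RNA. CD11c-Cre is a recombinase driven in CD11c-expressing cells, so macrophages and other CD11c-positive cells lose the floxed genes. The control labels give floxed alleles and do not say whether Cre was absent, and no age is given. All knockouts share the loss of Vhl, and no group lacking Vhl alone is among these samples. Cells came from lung lavage by magnetic selection on CD11c.

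Fat is stored in cells as droplets of triglyceride with a protein coat. Diacylglycerol acyltransferases make the triglyceride, perilipins cover the droplet and shield it, and lipolysis starts when adipose triglyceride lipase (the Pnpla2 product) is engaged by its activator ABHD5. Hilpda and G0s2 encode small inhibitors of that lipase, and Hilpda is a well-known target of hypoxia-inducible factors. Vhl encodes the adaptor through which these factors are marked for degradation in normal oxygen, and alveolar macrophages handle large amounts of lipid because they clear surfactant.

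Promoter sequence is shown for the coat gene and the inhibitor gene whose RNA moved most among the 9, Plin4 and Hilpda, and for the dominant coat gene, Plin2. Each window runs from 250 bases before to 50 bases after a RefSeq start site (GRCm38.p6) and is printed 5′ to 3′ on the gene's strand. Capitals mark every ACGTG or GCGTG on either strand, the core letters of the hypoxia response element, which read CACGT and CACGC when they lie on the other strand. The windows are chr17:56109733-56110032, minus strand, for Plin4, chr6:29272376-29272675, plus strand, for the downstream of the 2 Hilpda starts, and chr4:86670010-86670309, minus strand, for Plin2.
Plin4: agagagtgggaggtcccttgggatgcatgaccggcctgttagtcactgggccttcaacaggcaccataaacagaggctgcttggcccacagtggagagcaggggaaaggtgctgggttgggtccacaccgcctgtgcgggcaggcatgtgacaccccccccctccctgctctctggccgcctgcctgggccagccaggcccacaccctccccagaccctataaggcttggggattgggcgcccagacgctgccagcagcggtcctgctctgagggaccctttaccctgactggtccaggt
Hilpda: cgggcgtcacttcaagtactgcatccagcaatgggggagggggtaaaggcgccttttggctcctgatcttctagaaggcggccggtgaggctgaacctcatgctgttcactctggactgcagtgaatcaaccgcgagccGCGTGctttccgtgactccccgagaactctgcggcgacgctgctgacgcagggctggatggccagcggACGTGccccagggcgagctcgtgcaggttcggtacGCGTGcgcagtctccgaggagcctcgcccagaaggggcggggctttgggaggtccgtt
Plin2: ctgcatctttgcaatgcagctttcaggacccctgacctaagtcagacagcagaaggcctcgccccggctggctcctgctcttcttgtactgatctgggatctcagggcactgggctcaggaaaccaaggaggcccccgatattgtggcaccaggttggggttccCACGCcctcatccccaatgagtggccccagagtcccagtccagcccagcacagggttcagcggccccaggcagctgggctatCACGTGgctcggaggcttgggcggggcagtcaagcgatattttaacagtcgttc

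The Plin4 window held neither motif. The printed Hilpda window held GCGTG at positions -111 and -8 and ACGTG at -43 from the start, all on the gene's strand. The window of the upstream Hilpda start, which overlaps the printed one, held 1 GCGTG at position 28 and no ACGTG. In Plin2 the palindrome CACGTG gives an overlapping ACGTG on both strands at -4 and -3, and a GCGTG lay on the opposite strand at -86. Windows were found for 7 of the 9 genes, 9 windows in all; those of Pnpla2 and Plin3 held neither motif, and Abhd5 had 1 GCGTG at -18. Of Lipe's 2 windows, 1 had an ACGTG on both strands at -155 and -154 with a GCGTG at -75, and the other had none. Among 32851 mouse promoter windows of the same 300 bases, 43.8% held at least 1 of the 2 motifs, 19.6% ACGTG and 32.4% GCGTG. A match describes letters in a window and is not evidence of binding.

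Total counts were between 19230452 and 34015320 per library. Vhl RNA was lower in every knockout, at a mean of 2.88, 2.25 and 2.20 CPM (counts scaled to a common library size) in the Vhl/Hif1a, Vhl/Hif2a and triple knockouts against 16.9, 18.7 and 12.9 CPM in their controls. Hif1a fell in the Vhl/Hif2a knockout (66.3 against 217 CPM) and Epas1 rose there (54.2 against 27.6 CPM). Neither was called elsewhere. Hif1a averaged 194 against 229 CPM in the Vhl/Hif1a cross and 239 against 209 CPM in the triple cross. Epas1 averaged 47.9 against 34.7 CPM and 34.2 against 40.4 CPM. Triple control 2 stood apart for both, with Hif1a at 137 CPM against 251 and 238 CPM in the other triple controls. Epas1 was at 51.4 CPM in that library against 37.2 and 32.6 CPM in the others. Whole-gene counts include exons outside a deletion, so these 2 genes do not check their own deletion and groups are named by their labels. All 12 alveolar macrophage markers were detected in every group, with summed levels of 33706 to 40347 CPM in Vhl/Hif1a knockouts against 28752 to 30187 CPM in their controls, 34615 to 37024 against 25687 to 29442 CPM in the Vhl/Hif2a cross and 33729 to 34413 against 23002 to 30730 CPM in the triple cross. Most of the summed level in every group was Chil3, at means of 28383 against 20756 CPM in the Vhl/Hif1a cross. In the Vhl/Hif1a knockouts the means of Siglecf (449 against 568 CPM), Krt79, Ear2 and Mrc1 were lower, and those of the other markers higher. Lower means in the Vhl/Hif2a knockouts were those of Siglecf (466 against 576 CPM), Krt79, Car4 and Bhlhe41. In the triple knockouts they were those of Siglecf (546 against 555 CPM), Krt79, Bhlhe41 and Cidec, and the other markers were higher in both. The lowest summed level was in triple control 2. That library differed most from its group, with a chi-square per degree of freedom of 131 to 133 against the other 2 triple controls, compared with 9.03 to 45.4 for the remaining within-group pairs, and the triple knockout changes of the 9 genes are given with and without it. The 9 dendritic cell markers summed to 12.7 to 17.8 CPM in Vhl/Hif2a knockouts against 27.6 to 60.3 CPM in controls, and the 9 neutrophil markers to 74.0 to 82.5 CPM in Vhl/Hif1a knockouts against 149 to 165 CPM in controls, with Ly6g at 0 in all libraries. In the Vhl/Hif1a cross the neutrophil markers Csf3r (27.2 against 70.5 CPM), Mmp8 (39.1 against 68.0 CPM) and Cxcr2 (4.63 against 12.6 CPM) were lower. S100a8 (6.90 against 3.07 CPM) and S100a9 (0.327 against 0.193 CPM) were higher, and the others averaged at most 0.158 CPM. Neutrophil markers were at 145 to 163 CPM in triple knockouts against 128 to 136 CPM in controls. Lung structural markers summed to 27.1 to 47.0 CPM in Vhl/Hif1a knockouts against 67.8 to 86.3 CPM in controls and to 167 to 188 against 208 to 248 CPM in the triple cross, and monocyte and interstitial macrophage markers to 25.1 to 38.4 against 19.4 to 24.6 CPM in the Vhl/Hif1a cross. The part of these shifts in the results was not tested. In bulk RNA, fewer cells of a type and less RNA per cell cannot be told apart.

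The 9 genes spanned a wide range of expression. Per kilobase of exon, Plin2 was highest in all 6 groups, with group means of 390 to 475 CPM per kb, followed by Pnpla2 at 63.5 to 114 CPM per kb, Plin3 at 34.8 to 41.4 CPM per kb and Abhd5 at 28.0 to 36.8 CPM per kb. Dgat1 and Dgat2 lay between 11.2 and 25.3 CPM per kb, Hilpda between 2.93 and 12.4, Lipe between 1.46 and 1.92, and Plin4 was lowest in every group, between 0.0366 and 1.34 CPM per kb. Cidec, another droplet protein and an alveolar macrophage marker here, had group means of 370 to 478 CPM, whereas Plin1, the adipocyte perilipin, had 1.47 to 6.62 CPM. The adipocyte genes Adipoq, Lep and Cfd were at 0 in all 18 libraries, and the summed 7 adipocyte markers were 2.70 to 3.99 CPM in Vhl/Hif1a knockouts against 1.58 to 1.65 CPM in controls, 0.747 to 3.51 against 1.27 to 3.58 CPM in the Vhl/Hif2a cross and 4.25 to 6.85 against 3.92 to 9.32 CPM in the triple cross. Plin1 is among the 7 and made up most of the sum in every group, at means of 3.28 against 1.47 CPM in the Vhl/Hif1a cross.

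**Figure D1:**
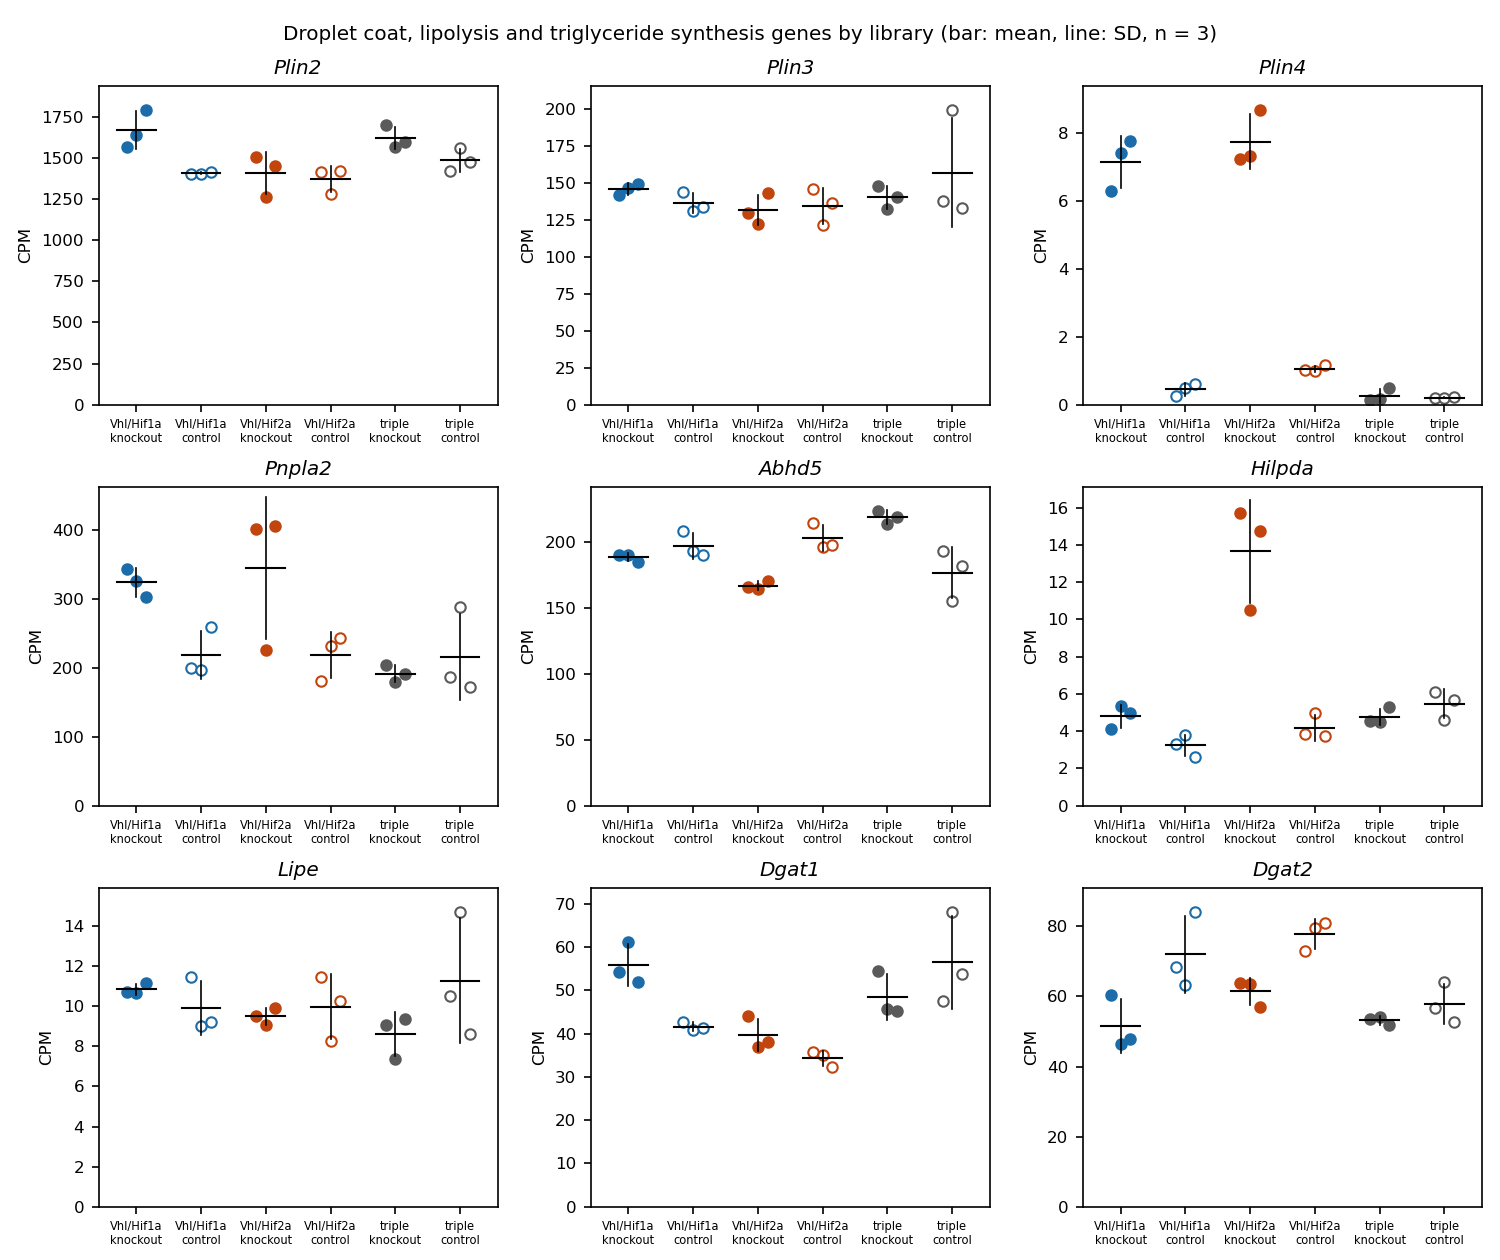
CPM of the 9 genes in each library, with filled circles for knockouts, open circles for controls, a bar at the group mean and a line for the SD (n = 3); every axis is linear and starts at 0. Plin4 is above 6 CPM in all libraries of the Vhl/Hif1a and Vhl/Hif2a knockouts and at most 1.16 CPM in the other libraries, and Hilpda is above 10 CPM only in Vhl/Hif2a knockouts.

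Knockout was set against control within each cross, in 1 edgeR quasi-likelihood model over all 18 libraries and 12900 genes, with Benjamini-Hochberg adjustment over all of them and a call where the adjusted p was under 0.05; adjusted p-values below are from that test unless another is named. Changes are log2 fold changes, knockout over control, with their standard error. In the Vhl/Hif1a knockout 2 of the 9 genes were called, Plin4 higher and Dgat2 lower, where 3.64% of all genes tested were called (2.22% higher, 1.42% lower). In the Vhl/Hif2a knockout 4 were called, with Plin4, Hilpda and Pnpla2 higher and Abhd5 lower, where 14.7% of all genes were called (7.68% higher, 7.01% lower). In the triple knockout none of the 9 was called by edgeR or DESeq2. Over all genes edgeR called 0.0388% there (5 genes, 0.031% higher, 0.00775% lower). An unadjusted edgeR p under 0.05 was found there for 2 of the 9, Abhd5 and Lipe. That count was 6 in the Vhl/Hif1a cross and 5 in the Vhl/Hif2a cross. The share of all genes with an unadjusted p under 0.05 was not counted. Without triple control 2 edgeR also called 0 of the 9 in the triple cross, with 3 genes called in all. The triple changes were then 0.16 for Plin2, 0.05 for Plin3, 0.30 for Plin4, -0.31 for Hilpda, 0.09 for Pnpla2, 0.22 for Abhd5, -0.15 for Lipe, -0.06 for Dgat1 and -0.04 for Dgat2. The median change of the 9 genes was 0.25 in the Vhl/Hif1a cross, 0.04 in the Vhl/Hif2a cross and -0.16 in the triple cross (0.05 without triple control 2), beside medians over all genes of -0.00, 0.00 and -0.01. The labels do not say that libraries of a group came from separate mice, so p-values measure the spread between these libraries, which may in part be technical.

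**Figure D2:**
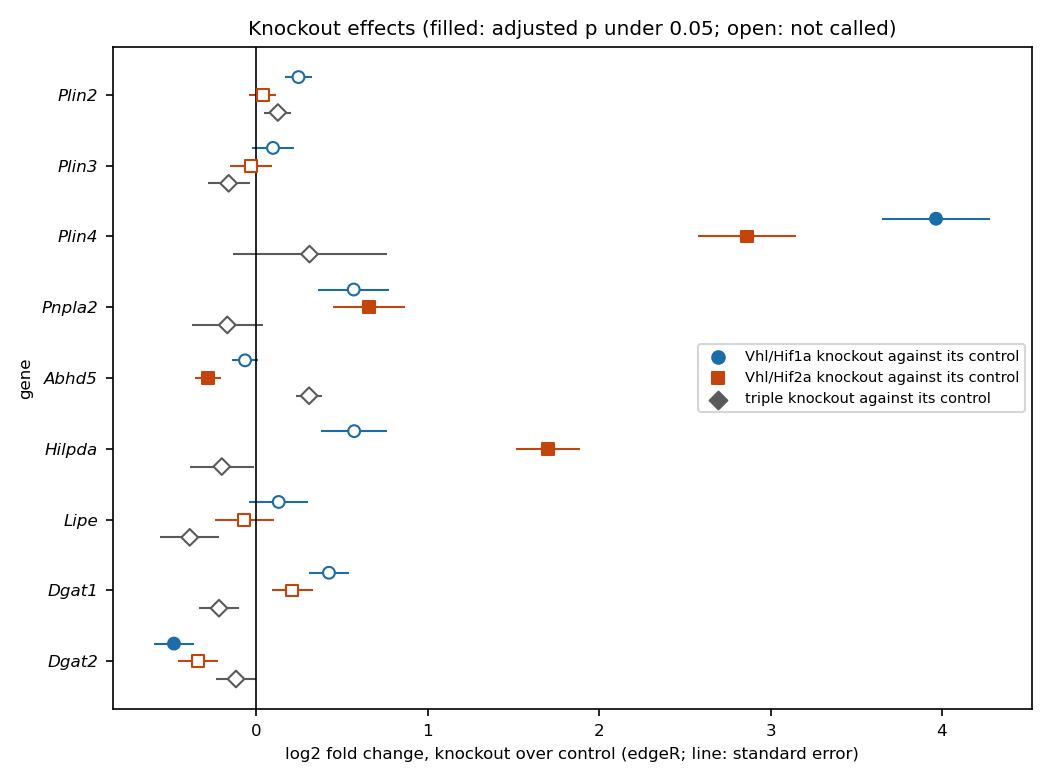
Log2 fold change of each gene, knockout over control, in the Vhl/Hif1a (circles), Vhl/Hif2a (squares) and triple (diamonds) crosses, with lines for the standard error and filled symbols for an edgeR adjusted p under 0.05. Plin4 stands at 3.97 and 2.86 in the first 2 crosses and 0.31 in the triple cross, and Hilpda at 1.70 in the Vhl/Hif2a cross alone is called.

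Among the coat genes, Plin4 changed most. Plin4 (ENSMUSG00000002831, chromosome 17, 56100591 to 56109803, minus strand, GENCODE M21 on GRCm38) encodes a perilipin best known from the droplets of adipocytes. It had 6.31, 7.41 and 7.78 CPM in the Vhl/Hif1a knockouts, against 0.253, 0.485 and 0.617 CPM in their controls. Counts there were 168, 199 and 199 in the knockouts and 6, 11 and 16 in the controls, so each knockout library was far above each control. The change was 3.97 ± 0.32 (adjusted p = 5.25e-07), a 15.6-fold difference.

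In the Vhl/Hif2a knockouts Plin4 was at 7.24, 7.33 and 8.70 CPM, against 1.02, 1.0 and 1.16 CPM in controls. The groups were again separate, and the change was 2.86 ± 0.29 (adjusted p = 2.19e-06), a 7.28-fold difference. In the triple knockouts it was at 0.137, 0.162 and 0.50 CPM, against 0.197, 0.208 and 0.229 CPM in controls, from counts of 4, 5 and 14 in knockouts and 6, 5 and 6 in controls. These groups overlapped, and the change of 0.31 ± 0.45 was not called (adjusted p = 0.72); without triple knockout 3, the library with 14 counts, it was -0.48.

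The Plin4 effect in the Vhl/Hif1a cross exceeded that in the triple cross by 3.66 ± 0.58 (adjusted p = 0.0015), and that in the Vhl/Hif2a cross exceeded it by 2.55 ± 0.55 (adjusted p = 0.0079). Plin4 was the only one of the 9 genes called in the Vhl/Hif1a difference, where 2.04% of all genes were called (1.5% higher, 0.535% lower), and 1 of 3 in the Vhl/Hif2a difference, where 7.99% were (4.91% higher, 3.08% lower). Without triple control 2 the differences were 3.66 and 2.56, and without triple knockout 3 they were 4.45 and 3.35. The Vhl/Hif2a effect was 1.10 ± 0.43 smaller than the Vhl/Hif1a effect on the fitted scale (-1.10, 95% interval -2.03 to -0.17, adjusted p = 0.29), which was not called. The knockout levels of the 2 crosses overlapped, and the control levels did not. Vhl/Hif2a controls were between 1.0 and 1.16 CPM and Vhl/Hif1a controls between 0.253 and 0.617 CPM. Relative to Plin2 per kilobase, Plin4 amounted to 0.261% in Vhl/Hif1a knockouts against 0.0195% in controls, 0.337% against 0.0471% in the Vhl/Hif2a cross and 0.0101% against 0.00867% in the triple cross. Ordered by mean, Plin4 was highest in Vhl/Hif2a and Vhl/Hif1a knockouts, then in Vhl/Hif2a controls, which overlapped neither neighbour, and the Vhl/Hif1a controls, triple knockouts and triple controls followed, with overlap between neighbours. The Plin4 exons share 17 bases, 0.294% of their length, with Hdgfl2 on the other strand.

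Plin2 (ENSMUSG00000028494, chromosome 4, 86648386 to 86670060, minus strand) encodes the ubiquitous droplet coat protein often used as a measure of cellular lipid load. It had 1567, 1641 and 1793 CPM in the Vhl/Hif1a knockouts, against 1402, 1404 and 1411 CPM in controls. All knockout libraries were above all controls, a pattern that held for 23.8% of genes in that cross (11.8% with the knockout higher). The change of 0.25 ± 0.08, 1.19-fold, missed the threshold in edgeR (adjusted p = 0.12) and passed it in DESeq2 (adjusted p = 0.029). In the Vhl/Hif2a knockouts it was at 1505, 1262 and 1450 CPM, against 1411, 1279 and 1421 CPM in controls, overlapping, with a change of 0.04 (95% interval -0.13 to 0.21, adjusted p = 0.83). In the triple knockouts it was at 1699, 1568 and 1594 CPM, against 1421, 1559 and 1475 CPM in controls. Those groups did not overlap, as was the case for 15.3% of genes in the triple cross (6.97% with the knockout higher), and the change was 0.13 ± 0.08 (adjusted p = 0.45).

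Plin3 (ENSMUSG00000024197, chromosome 17, 56277476 to 56292873, minus strand), which encodes a perilipin that coats small nascent droplets, was called in none of the comparisons. Its group means lay between 132 and 157 CPM, and the groups overlapped in every cross. Its changes were 0.10 ± 0.12, -0.03 ± 0.12 and -0.16 ± 0.12 in the Vhl/Hif1a, Vhl/Hif2a and triple crosses. The 1 high library was triple control 2, at 199.5 CPM against 138 and 133 CPM in the other triple controls, and without it the triple change was 0.05.

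Hilpda (ENSMUSG00000043421, chromosome 6, 29272488 to 29275446, plus strand), the lipase inhibitor, rose in the Vhl/Hif2a knockout. It had 15.7, 10.5 and 14.7 CPM in these knockouts, against 3.83, 4.98 and 3.72 CPM in their controls. Every knockout library was above every control, as was the case for 35.1% of genes in that cross (18.5% with the knockout higher). The change was 1.70 ± 0.19 (adjusted p = 5.79e-06), a 3.26-fold difference.

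In the Vhl/Hif1a knockouts Hilpda was at 4.09, 5.33 and 4.96 CPM, against 3.29, 3.79 and 2.62 CPM in controls. The groups were separate with a small gap, and the change of 0.57 ± 0.19 was not called (adjusted p = 0.15). In the triple knockouts it was at 4.53, 4.50 and 5.28 CPM, against 6.12, 4.62 and 5.69 CPM in controls, overlapping, with a change of -0.20 ± 0.19 (adjusted p = 0.56).

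The Hilpda effect in the Vhl/Hif2a cross exceeded that in the triple cross by 1.91 ± 0.26 (adjusted p = 0.00016; 2.01 without triple control 2). It exceeded the Vhl/Hif1a effect by 1.13 ± 0.27 (adjusted p = 0.030), the only call among the 9 genes in that difference, where 2.44% of all genes were called (1.63% higher, 0.814% lower). That call was lost when any of 8 of the 12 libraries was left out, with adjusted p-values of 0.081 and 0.059 without Vhl/Hif1a knockouts 1 and 3, 0.0700 and 0.10 without Vhl/Hif1a controls 1 and 2, 0.097 and 0.076 without Vhl/Hif2a knockouts 1 and 3, and 0.075 and 0.073 without Vhl/Hif2a controls 1 and 3. In the order of group means, Vhl/Hif2a knockouts stood above the other 5 groups, of which the highest was the triple control at 5.48 CPM, and each neighbouring pair among those 5 overlapped. The Hilpda difference between the Vhl/Hif2a and Vhl/Hif1a effects stayed between 1.01 and 1.29 over the 12 fits.

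Pnpla2 (ENSMUSG00000025509, chromosome 7, 141455198 to 141460743, plus strand), the lipase that Hilpda inhibits, was also called higher in the Vhl/Hif2a knockout. Its levels were 401.7, 226.1 and 406.2 CPM in these knockouts, against 180.6, 232.2 and 243.2 CPM in controls. Knockout 2 lay within the control range and the other 2 knockouts above it, so the groups overlapped. The change was 0.66 ± 0.21 (adjusted p = 0.044), 1.58-fold. The call was lost without knockout 1 (adjusted p = 0.18), knockout 3 (0.17), control 1 (0.17), control 2 (0.082) or control 3 (0.0584), and in a fit of the Vhl/Hif2a cross alone (0.082).

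In the Vhl/Hif1a knockouts Pnpla2 was at 343.9, 326.1 and 302.0 CPM, against 199.6, 197.1 and 259.0 CPM in controls. These groups were separate, yet the change of 0.57 ± 0.21 was not called in the fit of all libraries (adjusted p = 0.20), while a fit of that cross alone called it (adjusted p = 0.022). In the triple knockouts it was at 203.8, 179.5 and 191.6 CPM, against 187.0, 287.7 and 172.2 CPM in controls, where the highest control was triple control 2. The triple change was -0.17 ± 0.21 (adjusted p = 0.67) with that library and 0.09 without it. The Vhl/Hif1a and Vhl/Hif2a effects differed by 0.09 (95% interval -0.55 to 0.73), and they exceeded the triple effect by 0.74 ± 0.29 and 0.83 ± 0.29, neither of which was called (adjusted p = 0.24 and 0.097). Without triple control 2 these excesses were 0.47 and 0.56 (adjusted p = 0.52 and 0.22). The last was called without Vhl/Hif2a knockout 2 (1.06, adjusted p = 0.017) or without triple control 3 (0.97, adjusted p = 0.049).

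Abhd5 (ENSMUSG00000032540, chromosome 9, 122351608 to 122381524, plus strand) encodes the coactivator that the lipase needs for full activity. It had 166.0, 164.1 and 170.7 CPM in the Vhl/Hif2a knockouts, against 214.9, 196.6 and 198.2 CPM in controls. All knockouts were below all controls, and the change was -0.28 ± 0.08 (adjusted p = 0.019), a fold of 0.821. The call was lost without knockout 1 (adjusted p = 0.066), knockout 2 (0.056) or control 1 (0.085), and with no filter on low counts (0.078).

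Abhd5 lay the other way in the triple knockouts, at 224.0, 213.8 and 219.3 CPM, against 193.4, 155.2 and 182.2 CPM in controls. The groups were separate with the knockouts higher, and the change of 0.31 ± 0.08 was not called (adjusted p = 0.43). In the Vhl/Hif1a knockouts it was at 190.1, 190.4 and 185.1 CPM, against 208.6, 193.4 and 190.2 CPM in controls, with a change of -0.07 (95% interval -0.23 to 0.10, adjusted p = 0.83). The Vhl/Hif2a effect was below the triple effect by 0.59 on the log2 scale (-0.59 ± 0.11, adjusted p = 0.0022; -0.51 without triple control 2), which was called in the fit of all libraries and without any 1 library of the 2 crosses. The Vhl/Hif1a effect was below it by a smaller amount, -0.37 ± 0.11, that was not called by edgeR (adjusted p = 0.098; -0.29 without triple control 2) and was by DESeq2 (0.023); without triple control 1 edgeR called it (-0.44, adjusted p = 0.042). Over the 6 groups every neighbouring pair of Abhd5 means overlapped, from 219 CPM in triple knockouts to 167 CPM in Vhl/Hif2a knockouts. The Abhd5 exons share 950 bases, 16% of their length, with the antisense gene A730085K08Rik, and the Abhd5 values were not whole numbers in any of the 18 libraries; whether the counting used strand is not given in the sources used here.

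The lipase and its inhibitor were both called higher in the Vhl/Hif2a knockout, so their levels were set against each other within each library. Per kilobase, the Pnpla2 to Hilpda ratio was 9.34, 7.85 and 10.1 in these knockouts, against 17.2, 17.0 and 23.9 in controls. All knockouts were below all controls, and the mean of 9.08 ± 1.13 against 19.4 ± 3.91 (SD, n = 3 each) gave the smallest two-sided p an exact permutation test of 3 against 3 allows, 0.1. The ratio averaged 25.1 ± 4.85 in Vhl/Hif1a knockouts and 25.7 ± 9.08 in controls (exact permutation p = 0.9), and 14.8 ± 1.60 in triple knockouts and 15 ± 6.72 in controls (exact permutation p = 1). In the triple cross the ratio was 16.4, 14.6 and 13.2 in knockouts, against 11.2, 22.8 and 11.1 in controls, so the groups overlapped through triple control 2 and all 3 knockouts were above the other 2 controls. The ratios were chosen after the genes' values were seen, so the exact permutation p of 0.1 adds no further test. The lower ratio in the Vhl/Hif2a knockouts follows from the larger change of Hilpda (1.70) than of Pnpla2 (0.66).

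Lipe (ENSMUSG00000003123, chromosome 7, 25379527 to 25398710, minus strand), which encodes the lipase for the diacylglycerol step, was low throughout, with group means of 8.61 to 11.3 CPM, and was called in none of the comparisons. In every cross the groups overlapped. Its changes were 0.13 ± 0.17, -0.07 ± 0.17 and -0.39 ± 0.17 in the Vhl/Hif1a, Vhl/Hif2a and triple crosses (adjusted p = 0.85, 0.86 and 0.43). Its highest library was triple control 2, at 14.7 CPM, and without that library the triple change was -0.15. Its exons share 918 bases, 15.6% of their length, with the antisense gene 4732471J01Rik.

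The synthases were described as a pair because they carry out the same last step of triglyceride synthesis with unrelated proteins. Dgat2 (ENSMUSG00000030747, chromosome 7, 99153658 to 99182719, minus strand) fell in the Vhl/Hif1a knockout. It had 60.5, 46.4 and 47.9 CPM in these knockouts, against 68.4, 63.4 and 84.2 CPM in controls. The groups were separate, and the change was -0.48 ± 0.11 (adjusted p = 0.024), a fold of 0.717. The call was lost without knockout 2 (adjusted p = 0.14), knockout 3 (0.13), control 1 (0.052) or control 3 (0.16), and in a fit of that cross alone (0.081).

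Dgat2 in the Vhl/Hif2a knockouts was at 63.8, 63.5 and 57.1 CPM, against 73.0, 79.5 and 81.1 CPM in controls. These groups too were separate with knockouts lower, and the change of -0.34 ± 0.11 missed the threshold in the edgeR fit of all libraries (adjusted p = 0.055) and passed it in DESeq2 (0.030) and in a fit of that cross alone (0.018). Dgat2 in the triple knockouts was at 53.7, 54.2 and 51.8 CPM, against 56.6, 64.0 and 52.8 CPM in controls, with a change of -0.12 (95% interval -0.37 to 0.13, adjusted p = 0.58). The Vhl/Hif1a and Vhl/Hif2a effects were below the triple effect by amounts that were not called (-0.36 and -0.22, adjusted p = 0.28 and 0.40; -0.44 and -0.30 without triple control 2).

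Dgat1 (ENSMUSG00000022555, chromosome 15, 76502015 to 76511953, minus strand) had 54.3, 61.2 and 52.0 CPM in the Vhl/Hif1a knockouts, against 42.7, 40.8 and 41.4 CPM in controls. The groups were separate with knockouts higher; the change of 0.42 ± 0.12 missed the threshold (adjusted p = 0.059) and passed it in DESeq2 and in a fit of that cross alone (both 0.018). Vhl/Hif2a knockouts had 44.0, 37.0 and 38.1 CPM, against 35.7, 35.0 and 32.3 CPM in controls, separate with a change of 0.21 ± 0.12 (adjusted p = 0.29). Triple knockouts had 54.5, 45.7 and 45.2 CPM, against 47.4, 68.2 and 53.7 CPM in controls, overlapping, with a change of -0.22 ± 0.12 (adjusted p = 0.43; -0.06 without triple control 2, the highest control). The Vhl/Hif1a effect exceeded the triple effect by 0.64 ± 0.17, not called in the edgeR fit of all libraries (adjusted p = 0.061) and called in DESeq2 (0.012), with no filter on low counts (0.044) and without triple control 1 (0.019). Without triple control 2 that excess was 0.48 (adjusted p = 0.089). The Vhl/Hif2a effect exceeded it by 0.43 ± 0.17 (adjusted p = 0.13; 0.27 without triple control 2), and was called without triple control 1 (0.54, adjusted p = 0.042).

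The ratio of Dgat1 to Dgat2 per kilobase was 0.904, 1.33 and 1.10 in the Vhl/Hif1a knockouts, against 0.630, 0.650 and 0.496 in controls. It was 0.695, 0.587 and 0.674 in the Vhl/Hif2a knockouts, against 0.493, 0.444 and 0.402 in controls. In both crosses every knockout was above every control, which follows from Dgat1 being higher and Dgat2 lower there without overlap. The ratio was chosen after those values were seen, so its exact two-sided permutation p of 0.1 adds no further test. That p is the smallest that 3 against 3 allows, and the means stood 1.88-fold and 1.46-fold apart. In the triple cross the ratio was 1.02, 0.850 and 0.881 in knockouts, against 0.845, 1.07 and 1.03 in controls, and these overlapped (exact permutation p = 0.6).

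**Figure D3:**
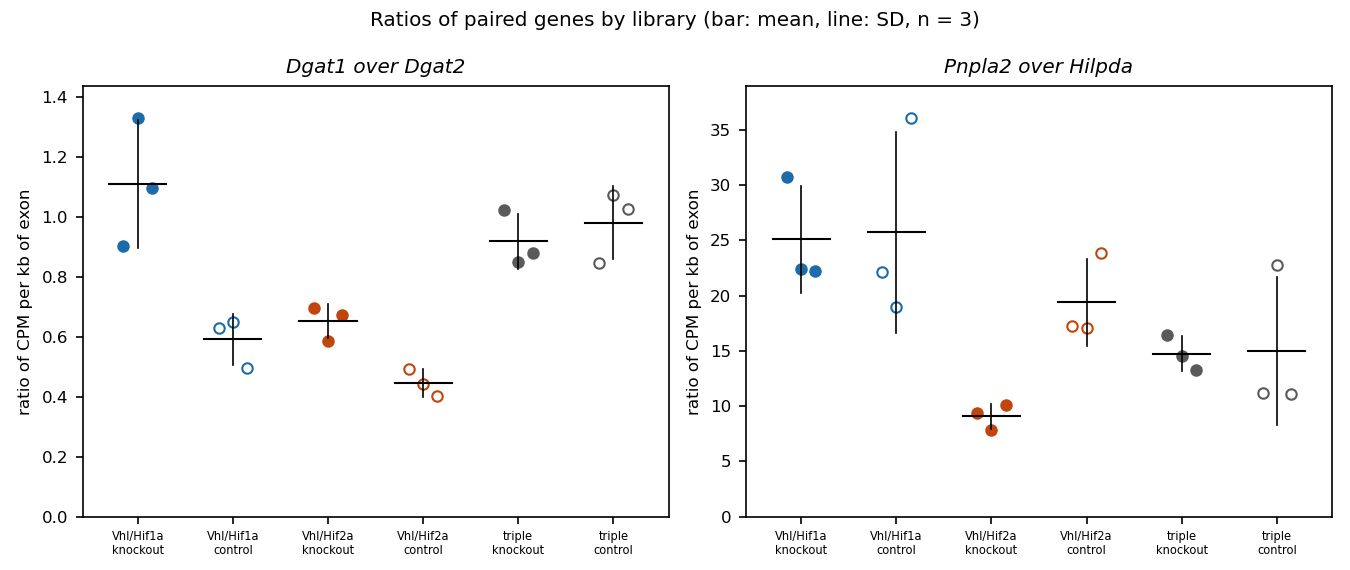
Ratio of Dgat1 to Dgat2 (left) and of Pnpla2 to Hilpda (right) in CPM per kb of exon for each library, with filled circles for knockouts, open circles for controls, a bar at the mean and a line for the SD (n = 3). The first ratio is higher in Vhl/Hif1a and Vhl/Hif2a knockouts than in their controls, and the second is lower in the Vhl/Hif2a knockouts, between 7.85 and 10.1.

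The control groups of the 3 crosses were themselves compared, because a difference between knockout effects also reads the controls. Against triple controls, Vhl/Hif1a controls had lower Hilpda (3.23 against 5.48 CPM, -0.76 ± 0.19, adjusted p = 0.031) and lower Dgat1 (41.6 against 56.4 CPM, -0.44 ± 0.12, adjusted p = 0.042), 2 of the 9 genes where 5.4% of all genes were called (2.42% higher, 2.98% lower). Vhl/Hif2a controls had higher Plin4 (1.06 against 0.212 CPM, 2.31 ± 0.38, adjusted p = 0.0032), higher Dgat2 (77.8 against 57.8 CPM, 0.43 ± 0.11, adjusted p = 0.049) and lower Dgat1 (34.3 against 56.4 CPM, -0.72 ± 0.12, adjusted p = 0.0032), 3 of the 9 where 3.42% of all genes were called (1.88% higher, 1.54% lower). Fits of only the 2 control groups compared called none of these 5 differences. Of the 5, Plin4 and Dgat1 in Vhl/Hif2a controls were called without any 1 library of the compared groups. The Hilpda difference was lost without Vhl/Hif1a control 1 (adjusted p = 0.065), Vhl/Hif1a control 3 (0.14) or triple control 1 (0.062), and the Dgat1 difference in Vhl/Hif1a controls without any 1 of these controls (0.076, 0.13 and 0.13) or without triple control 2 (0.13). The Dgat2 difference was lost without any 1 of the Vhl/Hif2a controls (0.056, 0.17 and 0.14) or without triple control 1 (0.073) or 3 (0.082), with RLE size factors (0.052) and with no filter on low counts (0.060). Between Vhl/Hif2a and Vhl/Hif1a controls none of the 9 was called by edgeR, where 0.341% of all genes were called (0.248% higher, 0.093% lower). An unadjusted edgeR p under 0.05 was found for 2 of the 9 there and for 4 in each comparison with triple controls. The share of all genes at that level was not counted. Floxed alleles and cross cannot be told apart in these comparisons.

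Other droplet genes were read from lists for coat and droplet formation, lipolysis, triglyceride synthesis and their transcriptional regulators. Of the coat and formation genes besides the perilipins above, 20 of 25 were tested; 1 was higher and 1 lower in the Vhl/Hif1a knockout, 2 and 2 in the Vhl/Hif2a knockout and 0 in the triple knockout, beside 3.64%, 14.7% and 0.0388% of all genes tested. Cidea, which encodes a protein that enlarges droplets in brown fat, averaged 1.21 ± 0.34 CPM in Vhl/Hif1a knockouts and 0.186 ± 0.17 CPM in controls (SD, n = 3 each), a change of 2.64 ± 0.61 (adjusted p = 0.021). In the Vhl/Hif2a cross it averaged 4.14 ± 0.77 CPM in knockouts and 0.295 ± 0.12 CPM in controls, a change of 3.82 ± 0.57 (adjusted p = 0.00017), and in the triple cross 0.200 and 0.230 CPM. Cideb, its liver relative, rose by 0.79 ± 0.15 in the Vhl/Hif2a knockout (adjusted p = 0.0015), while Cidec was called in no cross. The GTPase gene Rab32 fell by 0.34 in the Vhl/Hif1a knockout, and the sterol synthesis enzyme Hsd17b7 and the phosphatidylcholine synthesis enzyme Pcyt1a fell by 0.48 and 0.46 in the Vhl/Hif2a knockout.

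Of the lipolysis genes besides the members above, 14 of 18 were tested, and 2 were higher in each of the Vhl/Hif1a and Vhl/Hif2a knockouts and 0 in the triple knockout, against shares over all genes of 3.64%, 14.7% and 0.0388%. They were the fatty acid binding protein gene Fabp4 and the monoacylglycerol lipase gene Abhd6 in both. Fabp4 averaged 88.3 ± 6.70 CPM in Vhl/Hif1a knockouts and 41.3 ± 8.17 CPM in controls (change 1.10 ± 0.15), 354.9 ± 3.87 and 132 ± 36.3 CPM in the Vhl/Hif2a cross (1.43 ± 0.15), and 147 ± 10.4 and 129 ± 5.95 CPM in the triple cross (0.19, adjusted p = 0.51). G0s2, the other inhibitor of the lipase, was called in no cross, with changes of 0.22, 0.38 and -0.18, and neither was Mgll, which completes lipolysis (0.02, 0.33 and -0.39).

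Of the other triglyceride synthesis genes, 17 of 22 were tested, and 1 was higher in the Vhl/Hif1a knockout (3.64% of all genes called), 3 in the Vhl/Hif2a knockout (14.7%) and 0 in the triple knockout (0.0388%). Acsl3, an acyl-CoA synthetase of nascent droplets, averaged 25.6 ± 4.05 CPM in Vhl/Hif1a knockouts and 10.8 ± 1.30 CPM in controls, and 21.1 ± 5.63 and 8.91 ± 2.25 CPM in the Vhl/Hif2a cross, with a change of 1.25 in both. The acyltransferases Agpat5 (0.91 ± 0.09) and Gpat3 (0.28 ± 0.08) rose in the Vhl/Hif2a knockout. Of the regulators, 15 of 18 were tested; 1 was higher in the Vhl/Hif1a knockout (3.64% of all genes called), 1 higher and 1 lower in the Vhl/Hif2a knockout (14.7%) and 0 in the triple knockout (0.0388%). Nr1h3, the liver X receptor alpha gene, rose by 0.72 ± 0.10 in the Vhl/Hif1a knockout and by 0.55 ± 0.10 in the Vhl/Hif2a knockout, and Tfe3, a lysosomal and autophagy regulator, fell by 0.39 in the Vhl/Hif2a knockout. Pparg, a regulator of droplet genes and of alveolar macrophage identity, was called in no cross. Of the genes in these lists, Cidec, Plin1, G0s2, Mgll and Pparg were singled out after their values were seen. Median changes over these lists were between -0.07 and 0.12 in the 2 crosses with a double knockout, and the regulators' median in the triple cross was -0.29 with all libraries and -0.06 without triple control 2.

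Genes with the most similar pattern were sought for each of the 5 genes called in at least 1 knockout comparison, as the 3 genes above a mean of 1 CPM with the same calls in the 3 crosses and the smallest mean absolute difference of log2 fold changes. For Plin4, 191 genes had the same calls, and the nearest were Rtl5 (4.04, 3.31 and -0.28 in the Vhl/Hif1a, Vhl/Hif2a and triple crosses; mean difference 0.37), Nhsl2 (0.38) and Topaz1 (0.41). For Hilpda they were Hacd1 (0.53, 1.70 and -0.12; mean difference 0.043), Tmem221 (0.075) and Msl3l2 (0.086), among 679 genes. For Pnpla2 the nearest were Rps28, Cbx7 and Nfkbia, for Abhd5 Gmcl1, Il6st and Zfp398, and for Dgat2, where 48 genes had the same calls, Cttn, Lilra6 and Haus8. These likenesses describe 3 fold changes per gene over the same 18 libraries.

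**Figure D4:**
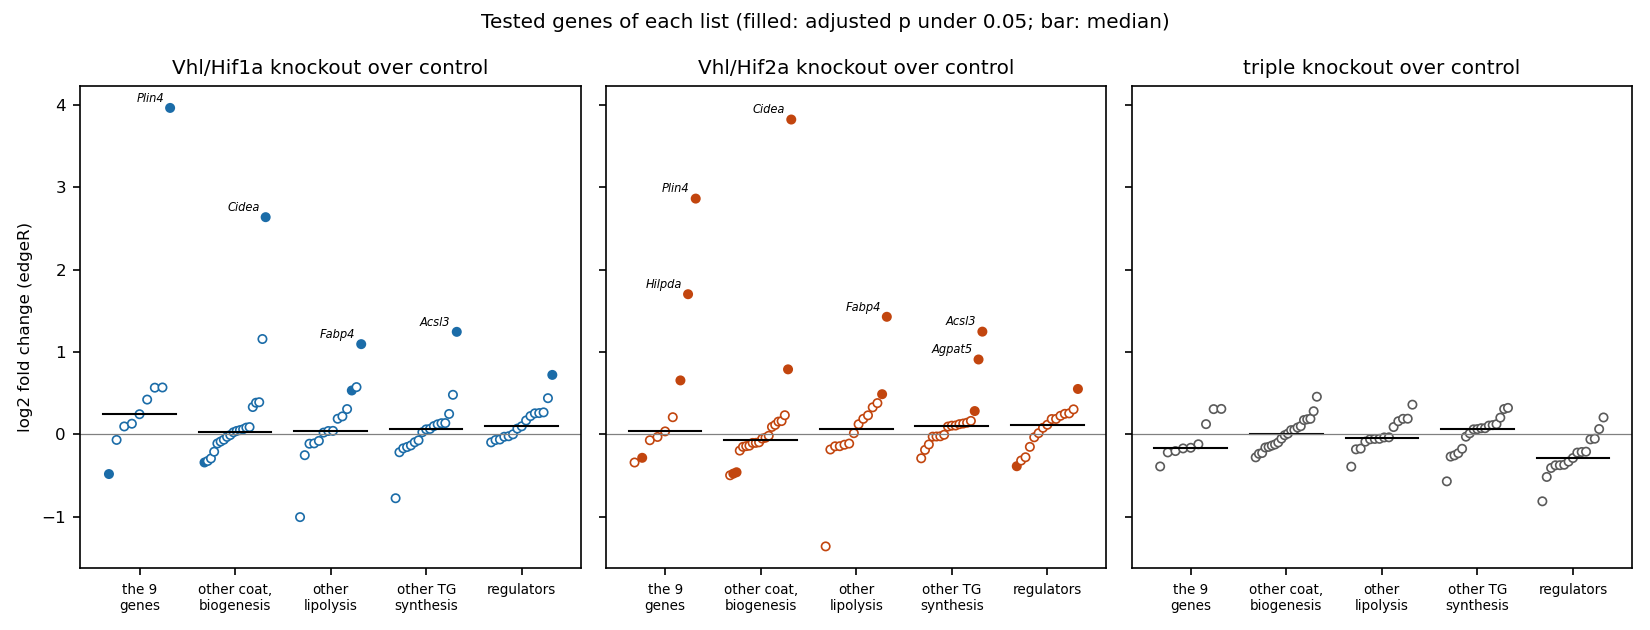
Log2 fold changes, knockout over control, of every tested gene of the 5 lists in the Vhl/Hif1a, Vhl/Hif2a and triple crosses, with filled points for an edgeR adjusted p under 0.05, a bar at the list's median, and names for called genes with a change above 0.85. The named points are all positive and belong to the 2 double knockouts, and the triple cross has no filled point.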

How the data were processed

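The deposited table holds the authors' estimated counts per gene: its columns have different totals, and 89.251% of its values are whole numbers to within 1e-9. Reads were handled with FastQC, cutadapt and STAR on GRCm38, per the submitters' processing notes; what tool and annotation did the counting, and whether it used strand, is not given in the sources used here. Counts were rounded to whole numbers. All 18 columns were mapped to samples by name. Genes were filtered with filterByExpr over the 6 groups, which left 12900 of 32789 rows holding 99.967% of counts, and were scaled by TMM. The 9 contrasts (3 knockouts against controls, 3 differences of effects, 3 pairs of control groups) were tested with edgeR 4.0.16 (quasi-likelihood, R 4.3.3, limma 3.58.1) with Benjamini-Hochberg adjustment over all genes tested. CPM use TMM-scaled library sizes, and levels between genes are per kilobase of exon union in GENCODE M21 (99.77% of IDs matched). Standard errors were taken from the fold change and its F statistic, and 95% intervals use 12 residual degrees of freedom, so both are approximate. The exact permutation tests were two-sided on log2 ratios. DESeq2 1.42.0, RLE scaling, no filter on low counts, fits of only the groups compared, a replicate block and leaving out each library were alternatives. Promoters are from RefSeq. The fitting procedure was tested on simulated data.

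The genes and lists were chosen with earlier results of these data known, so no list was tested as a whole. Named were the 9 genes, the 3 targeted genes and, from each companion list and knockout comparison, the called genes above 1 CPM with the 3 highest and 3 lowest fold changes. Depth was between 19230452 and 34015320 counts per library, and the lowest Plin4 values rest on 4 to 6 counts, where counting error is large. Promoter windows were matched for 7 of the 9 genes, Dgat1 and Dgat2 being named only.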

Additional observations from a re-analysis of the deposited data

Results flagged for a closer look

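For 3 of the 9 genes, knockout effects differed between crosses by a test of the difference itself in edgeR. For Vhl/Hif1a minus triple 1 of the 9 was called, beside 2.04% of all genes. The count was 3 beside 7.99% for Vhl/Hif2a minus triple, and 1 beside 2.44% for Vhl/Hif2a minus Vhl/Hif1a. The Plin4 effect was 3.66 ± 0.58 log2 units larger in the Vhl/Hif1a cross than in the triple cross (adjusted p = 0.0015) and 2.55 ± 0.55 larger in the Vhl/Hif2a cross than in the triple cross (adjusted p = 0.0079), with all 3 knockouts above all 3 controls in both of those crosses and overlap in the triple cross. The Hilpda effect was 1.91 ± 0.26 larger in the Vhl/Hif2a cross than in the triple cross (adjusted p = 0.00016) and 1.13 ± 0.27 larger there than in the Vhl/Hif1a cross (adjusted p = 0.030), although knockouts were above controls in all 3 libraries of both crosses; that last call was lost in 8 of 12 fits that left out 1 library and with the replicate block (adjusted p = 0.12). The Abhd5 effect was lower in the Vhl/Hif2a cross than in the triple cross (-0.59 ± 0.11, adjusted p = 0.0022), with all 3 knockouts below all 3 controls in the Vhl/Hif2a cross and all 3 above in the triple cross. The Plin4 comparison reads control groups that differed, at 1.06 CPM in Vhl/Hif2a controls and 0.212 CPM in triple controls, and the part of that difference in the effects was not tested.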

How the results depend on the processing

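Counts of genes called moved when 1 library was left out, to 275 to 360 in the Vhl/Hif1a cross (469 with all), 1249 to 1639 in the Vhl/Hif2a cross (1895) and 3 to 4 in the triple cross (5; 11 in DESeq2, 2 in a fit of that cross alone). Of the 9 genes, leaving out 1 library gave 1 to 2 calls in the Vhl/Hif1a cross, 2 to 3 in the Vhl/Hif2a cross, 1 to 3 for Vhl/Hif1a minus triple, 3 to 4 for Vhl/Hif2a minus triple, 0 to 1 for Vhl/Hif2a minus Vhl/Hif1a, 0 to 2 for Vhl/Hif1a against triple controls and 2 to 3 for Vhl/Hif2a against triple controls. DESeq2 called 4 in the Vhl/Hif1a cross (Plin2, Plin4, Dgat1 and Dgat2) and 3 for Vhl/Hif1a minus triple, a count of 2 with no filter on low counts. In fits of only the groups compared, both comparisons with triple controls gave 0, and Plin4 had too few counts to be tested in the triple cross or between Vhl/Hif1a and triple controls. Plin4 was called in both double knockouts, and Hilpda in the Vhl/Hif2a knockout, under every alternative run. The cause of the moved counts was not tested.

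Signs turned with 1 library left out where changes were small, over these ranges of log2 fold change. In the Vhl/Hif2a knockout Plin2 ranged from -0.0143 to 0.11, Plin3 from -0.0989 to 0.0329 and Lipe from -0.19 to 0.0381. In the triple knockout Plin3 ranged from -0.27 to 0.0485, Plin4 from -0.48 to 0.61 and Pnpla2 from -0.31 to 0.0939. For Vhl/Hif2a minus triple Plin3 ranged from -0.0781 to 0.24, and for Vhl/Hif2a minus Vhl/Hif1a Pnpla2 from -0.0544 to 0.32. Between Vhl/Hif1a and triple controls Plin3 ranged from -0.31 to 0.00664, Lipe from -0.35 to 0.0494 and Pnpla2 from -0.13 to 0.28, and between Vhl/Hif2a and triple controls Lipe from -0.34 to 0.0563 and Pnpla2 from -0.12 to 0.28. Between Vhl/Hif2a and Vhl/Hif1a controls Plin2 ranged from -0.0684 to 0.0104, Plin3 from -0.0822 to 0.0495, Pnpla2 from -0.0876 to 0.14, Abhd5 from -0.000223 to 0.0820 and Lipe from -0.0994 to 0.13. With no filter on low counts Pnpla2 was at -0.000775 between Vhl/Hif2a and triple controls and -0.00631 between Vhl/Hif2a and Vhl/Hif1a controls, and at -0.000532 in the fit of only those last 2 groups. None of these was called. Without triple control 2, an alternative chosen after seeing the data, medians in the triple cross were 0.0485 over the 9 genes, -0.0014 over other coat genes (0.00038 with all libraries) and 0.031 over other lipolysis genes (-0.045 with all).

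Same-numbered knockout and control libraries did not deviate together (correlations across genes of -0.22 to 0.20, 1 of 9 above 0.1), so the numbers were not taken as pairs. With the replicate number as a block, 313, 1440 and 4 genes were called in the Vhl/Hif1a, Vhl/Hif2a and triple crosses, and 1, 3 and 0 of the 9 genes. The block ended the calls of Dgat2 in the Vhl/Hif1a cross (adjusted p = 0.066), Pnpla2 in the Vhl/Hif2a cross (0.11) and Hilpda for Vhl/Hif2a minus Vhl/Hif1a (0.12), where the count was 0.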
